A study of Mus musculus with 3 samples.

Results

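Imprinted genes, of which 51 were listed, were followed by locus in day 10 embryoid bodies of Dido3deltaCT mutant and wild type mouse cells. They were found by their gene name among the spots that are no controls, and 50 of the 51 had a probe, 89 probes in all of 39429 on the array. Of these genes, 39 were bright enough to test, among 15426 tested genes. The rule uses gene names and no measured value, but the members and the gene lists below were chosen with earlier results of these data known.

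Imprinted genes are transcribed mainly or only from the allele of one parent. Most lie in clusters, where a stretch of DNA methylated in one parent's germ line directs several neighbouring genes, often through a long noncoding RNA or a boundary that blocks enhancers. Many of them act on growth of the embryo and placenta, and in cultured embryonic stem cells their methylation marks can be lost or gained. The arrays measure the RNA of both alleles together, so the allele of origin was not measured.

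Embryoid bodies are aggregates in which embryonic stem cells differentiate. Both genotypes were grown for 10 days in suspension without LIF, the factor that keeps mouse embryonic stem cells from differentiating. The tested samples made a C-terminally truncated form of Dido3, the longest protein of the Dido1 locus, and the others were labelled as wild type controls; no further allele or treatment is given. Each of 3 two-colour arrays, all on 1 slide, held 1 mutant and 1 wild type sample, and the labels call the 3 pairs biological replicates without saying whether they are separate lines or repeat cultures of 1 line, so p-values measure the spread between these samples, which may be technical. The dye of the mutant RNA was Cy3 on 2 arrays (replicates 1 and 3) but Cy5 on replicate 2. Dye effects and the samples of replicate 2 therefore cannot be told apart.

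The share of probes well above background was 61.5% for mutant RNA, against 73.8% for wild type RNA, on replicate 1. It was 61.7% for mutant RNA, against 47.7% for wild type RNA, on replicate 2, and 45.7% for mutant RNA, against 62.4% for wild type RNA, on replicate 3, so that the sample in Cy5 had the higher share on each array. The Y-linked genes Eif2s3y and Ddx3y were at or near background in the mutant samples, Eif2s3y with a mean log2 ratio of −6.17 and Ddx3y at least 21.3-fold lower. The genotypes therefore differed in Y-linked RNA as well. The 3′ probe of Dido1 had a mean log2 ratio of 1.74 (adjusted p = 0.0580, limma), and the tested probes of the gene did not all lie on 1 side of 0. A probe at chr2:180415861-180415920 of mm9 had −2.48, −1.63 and −1.65, a mean of −1.92 ± 0.49 (SD, n = 3), and the other 2 averaged 1.12 and 1.36, the last being above background in no wild type sample. Which of these probes lie in the deleted part is not given. All ratios below are log2 of mutant over wild type after loess within each array. The SE and adjusted p are those of the limma fit over all tested genes, adjusted by Benjamini-Hochberg over these genes, and an adjusted p under 0.05 was called. Where 1 gene had several probes the brightest was used.

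Of the 39 tested imprinted genes, Dlk1 and Cdkn1c fell and none rose. Over all tested genes, 0.0908% were called lower and 0.207% higher. At an unadjusted p under 0.05, 8 imprinted genes were lower and 6 higher, and over all genes 1747 were lower and 1755 higher. The median ratio of the 39 was −0.39, against 0.035 over all genes. By array, the imprinted genes' median was −0.54, 0.12 and −0.20 on replicates 1, 2 and 3, so replicate 2 stood on the other side of 0. The mean ratio was below 0 for 24 of the 39 and above 0 for 15, against 7341 and 8085 of all 15426 genes.

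Large ratios that kept 1 sign on all 3 arrays were found for 11 imprinted genes, counted at a mean log2 ratio of at least 1 in size. Those above 0 were H19, Snrpn, Ascl2 and Mirg, 4 of 39 or 10.3%, against 7.0% of all genes. Those below 0 were Dlk1, Igf2, Cdkn1c, Plagl1, Gnas, Airn and Zim1, 7 of 39 or 17.9%, against 6.70% of all genes. The signal of the mutant samples did not overlap that of the wild type samples for 9 of the 11, the exceptions being Mirg and Airn. Such separation was usual for ratios of this size. It held for 3 imprinted genes above 0 and 6 below, against 5.91% and 5.17% of all genes, and for 80.8% of all genes with ratios of this size and 1 sign. Zim1 was bright enough only through the wild type samples, and passing in that way favours a ratio below 0. A filter added after the data were seen kept genes above background on all arrays of both genotypes. Among these, 4 of 37 imprinted genes had such a ratio above 0 (6.58% of all such genes) and 6 below 0 (5.63%). Of these imprinted genes 3 and 5 were separate in signal, and over all 13136 genes so filtered 709 and 544 were.

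**Figure D1:**
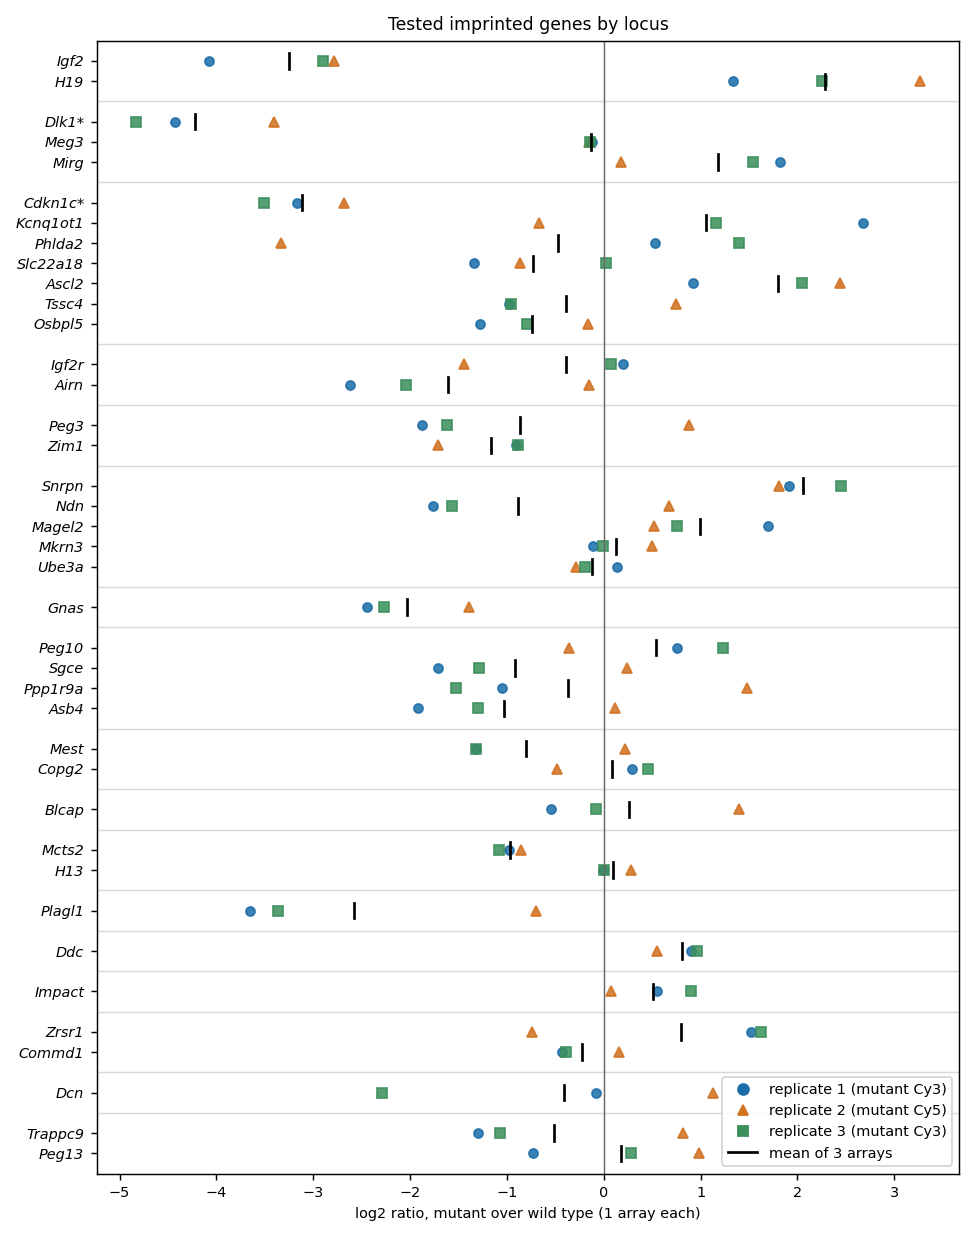
The log2 ratio of mutant over wild type is plotted for each tested imprinted gene on each of 3 arrays, with black lines at the means and grey lines between loci. Asterisks mark the 2 genes past the threshold, Dlk1 and Cdkn1c, and in 9 of the 11 loci with at least 2 tested genes the means lie on both sides of 0.

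The H19-Igf2 locus of distal chromosome 7 held the largest contrast between neighbours. Igf2, the paternally expressed insulin-like growth factor of the embryo, had a log2 signal of 7.34, 7.78 and 7.75 in the mutant samples, against 11.41, 10.57 and 10.64 in the wild type samples. Every mutant sample was below every wild type sample. Its ratios were −4.08, −2.79 and −2.90, with a mean of −3.25 ± 0.35 or 9.54-fold lower (SE, n = 3), and the adjusted p of 0.0502 in the limma fit missed the threshold. It passed in 6 of 13 other settings, with adjusted p between 0.00180 and 0.376. Its probe lies at chr7:149839661-149839720 of mm9, minus strand, in the annotated mRNA.

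H19, the maternally expressed long noncoding RNA that shares enhancers with Igf2, went the other way. Its log2 signal was 14.93, 16.52 and 16.24 in the mutant samples, against 13.59, 13.25 and 13.99 in the wild type samples, again with no overlap. The ratios were 1.34, 3.27 and 2.25, with a mean of 2.29 ± 0.42 or 4.88-fold higher (SE, n = 3; limma adjusted p = 0.0698, not past the threshold). The difference between the 2 ratios, Igf2 minus H19, was −5.42, −6.05 and −5.15 on the 3 arrays, a mean of −5.54 ± 0.47 (SD, n = 3). The second H19 probe was not well above background in any sample of either genotype. The H19 probe behind these values, at chr7:149761492-149761551 of mm9 on the minus strand, is shown because a noncoding RNA has no protein by which to recognise it.
H19: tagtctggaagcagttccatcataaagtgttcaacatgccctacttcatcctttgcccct

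The other genes of the insulin-like growth factor axis, listed without the imprinted members, had 17 of 18 tested and a median ratio of −0.93. None passed the test in either direction. At an unadjusted p under 0.05, 9 were lower and 2 higher, against 1747 and 1755 of all 15426 genes. Below 0 on all 3 arrays were 11 of the 17, or 64.7%, against 22.7% of all genes. Of these 11, Igfbp1 and Igfbp6 passed the filter only through the wild type samples. Igfbp1 and Igfbp5, secreted binding proteins of the growth factors, averaged −4.95 ± 0.51 and −3.95 ± 0.44, Igfbp1 being above background on 2 of 3 mutant arrays, and Pappa, a protease that cleaves such binding proteins, averaged −2.02 ± 0.26 (SE, n = 3 each). The binding proteins Igfbp3, Igfbp7 and Igfbp2 lay on the other side, above 0 on all 3 arrays, with means of 0.92, 0.97 and 0.63. Igfbp4 had 2.65, −1.04 and 1.74, and Igfbp6 averaged −0.93. Igf1r, the signalling receptor, averaged −1.21 ± 0.39 and Igf1, the related ligand, 0.27 ± 0.47. Igf2os, an antisense transcript within the Igf2 gene, had ratios of −2.83, −1.72 and −2.96, the same side as Igf2 on every array (adjusted p = 0.0543, limma).

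The Dlk1-Meg3 locus of chromosome 12 held the imprinted gene with the largest fall. Dlk1, whose paternal allele encodes a membrane-bound relative of the Notch ligands, had a log2 signal of 8.83, 11.46 and 9.78 in the mutant samples, against 13.26, 14.86 and 14.62 in the wild type samples. The 3 mutant values were all below the lowest wild type value. The ratios were −4.43, −3.40 and −4.83, with a mean of −4.22 ± 0.35 or 18.7-fold lower (SE, n = 3; limma adjusted p = 0.0417). The used probe lies at chr12:110698721-110698781 of mm9, plus strand. A second Dlk1 probe gave −3.03 ± 0.60 (SD, n = 3) and was well above background on 1 of 3 mutant arrays.

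The call of Dlk1 was lost without replicate 1 (adjusted p = 0.0840) and without replicate 3 (adjusted p = 0.0501), and that of Cdkn1c likewise (adjusted p = 0.104 and 0.0908). Both were also lost when 7 spots with extreme local background on replicate 3 entered the background model, at adjusted p of 0.122 for Dlk1 and 0.168 for Cdkn1c. Each kept its call in 6 of 13 other settings.

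Meg3, the maternally expressed long noncoding RNA of the same locus, had ratios near 0 at its brightest probe. Its log2 signal was 13.45, 14.23 and 13.28 in the mutant samples, against 13.57, 14.38 and 13.42 in the wild type samples, and the groups overlapped. The ratios were −0.12, −0.15 and −0.14, with a mean of −0.14 ± 0.23 (SE, n = 3; limma adjusted p = 0.757). Dlk1 minus Meg3 was −4.08 ± 0.75 and below 0 on every array (SD, n = 3). Another Meg3 probe, annotated to variant 1, had 2.48, −0.22 and 1.58 on the 3 arrays, a mean of 1.28 ± 1.37 (SD, n = 3). The sequences of this probe and of the brightest one are shown because they read different stretches of the transcripts, in order along the plus strand at chr12:110799558-110799617 and chr12:110809678-110809737 of mm9.
Meg3 variant 1 probe: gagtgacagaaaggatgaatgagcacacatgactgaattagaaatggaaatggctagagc
Meg3 brightest probe: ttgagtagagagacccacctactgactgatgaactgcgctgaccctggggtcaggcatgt

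Mirg, a maternally expressed RNA that carries a microRNA cluster at the far end of the locus, had ratios of 1.82, 0.18 and 1.55, with a mean of 1.18 ± 0.39 (SE, n = 3; limma adjusted p = 0.172). Its log2 signal was 14.10, 12.29 and 12.12 in the mutant samples, against 12.28, 12.12 and 10.57 in the wild type samples, and the groups overlapped. The other Mirg probe had 0.83 ± 0.33 and was above 0 on all arrays (SD, n = 3). Between Meg3 and Mirg lies the noncoding transcript 6430411K18Rik, which is no member of the list. It had 1.42, 0.73 and 0.80, was above background on 2 of 3 wild type arrays and passed the filter only through the mutant samples. A further such transcript in this stretch, 1110006E14Rik, had 1.88, −0.59 and 1.56 at its brightest probe and 1.25, 0.69 and 1.42 at its other probe, and both transcripts were chosen after their values were seen. Rtl1, a paternally expressed gene derived from a retrotransposon, was not well above background in any sample, and Rian had no probe under that name.

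The RefSeq promoters of Dlk1 and Meg3 (GRCm38.p6, 300 bases around the annotated start) are shown because the 2 genes share an imprinting control region and their ratios parted. CpG dinucleotides, the targets of DNA methylation, are in capitals. The Dlk1 window at chr12:109452573-109452872, plus strand, holds 9 of them, and 45.8% of all promoters in the table hold as many or more. The first Meg3 window at chr12:109540746-109541045, plus strand, holds 13, and the share is 37.9%.
Dlk1 promoter: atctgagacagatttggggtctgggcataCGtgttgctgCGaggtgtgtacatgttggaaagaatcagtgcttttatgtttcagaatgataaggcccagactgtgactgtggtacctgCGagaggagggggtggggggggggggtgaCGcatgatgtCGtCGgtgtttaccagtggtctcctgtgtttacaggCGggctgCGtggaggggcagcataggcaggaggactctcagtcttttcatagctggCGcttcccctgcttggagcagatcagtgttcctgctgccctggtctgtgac
Meg3 promoter: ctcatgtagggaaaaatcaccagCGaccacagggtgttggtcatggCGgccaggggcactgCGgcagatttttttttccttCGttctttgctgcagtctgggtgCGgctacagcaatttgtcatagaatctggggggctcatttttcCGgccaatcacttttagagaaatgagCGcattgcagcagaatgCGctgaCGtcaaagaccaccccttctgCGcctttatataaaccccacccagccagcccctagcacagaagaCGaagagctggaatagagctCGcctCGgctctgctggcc

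Promoter windows were found for 42 members outside chromosome 18, 63 windows in all, and their median CpG count was 13, against 7 over 32851 windows of all genes. The 6 letters TGCCGC, which the zinc finger protein ZFP57 binds when methylated, were searched on both strands and stood in 15 of the 63 windows (23.8%), against 11.6% of all windows. The 2 windows printed above differ in this, with 1 match in that of Meg3 and 0 in that of Dlk1. A match describes the letters and not binding, and the windows need not hold the differentially methylated region of a locus. The 6 letters hold a CpG, of which the members' windows had more, and shares at equal CpG count were not taken. Some windows of 1 gene overlap, among them 2 of Mest that both hold matches.

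The Kcnq1ot1 domain, also on distal chromosome 7, had 7 tested genes with a median ratio of −0.47, 5 of them below 0. Cdkn1c, a maternally expressed inhibitor of cyclin-dependent kinases that restrains growth, had a log2 signal of 9.99, 9.83 and 9.31 in the mutant samples, against 13.16, 12.51 and 12.82 in the wild type samples. The groups lay far apart, with over 2 log2 units between the nearest samples. The ratios were −3.17, −2.68 and −3.51, with a mean of −3.12 ± 0.28 or 8.69-fold lower (SE, n = 3; limma adjusted p = 0.0417). Its single probe lies at chr7:150644753-150644812 of mm9, minus strand.

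Ascl2, a transcription factor of the trophoblast at the edge of the domain nearest Igf2, had a log2 signal of 10.89, 11.30 and 11.27 in the mutant samples, against 9.97, 8.87 and 9.23 in the wild type samples. All mutant samples were above all wild type samples. The ratios were 0.92, 2.44 and 2.04, with a mean of 1.80 ± 0.37 or 3.48-fold higher (SE, n = 3; limma adjusted p = 0.0787). Both genes are classed as maternally expressed members of 1 domain, and their ratios had opposite signs on each array.

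Kcnq1ot1, the paternally expressed long noncoding RNA that silences the domain in cis on its own chromosome, did not keep 1 sign. Its brightest probe, at chr7:150434020-150434079 on the minus strand of mm9, had 2.67, −0.67 and 1.16, a mean of 1.06 ± 0.65 (SE, n = 3; limma adjusted p = 0.396). Its other probe, printed second because it lies upstream in the same RNA and gave another size, averaged 0.13 ± 0.36 (SD, n = 3; chr7:150440140-150440199, minus strand). Cdkn1c minus Kcnq1ot1 was below 0 on each array, with a mean of −4.18 ± 1.96 (SD, n = 3).
Kcnq1ot1 brightest probe: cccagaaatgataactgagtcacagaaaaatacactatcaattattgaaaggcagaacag
Kcnq1ot1 second probe: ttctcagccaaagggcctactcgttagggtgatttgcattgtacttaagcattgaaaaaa

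Phlda2, a pleckstrin homology protein that limits growth of the placenta, had ratios of 0.53, −3.34 and 1.40. Its log2 signal was 8.99, 8.15 and 9.0 in the mutant samples, against 8.47, 11.49 and 7.59 in the wild type samples, so that the wild type sample of replicate 2 was the highest of the 6. Cdkn1c minus Phlda2 spread accordingly, with a mean of −2.65 ± 2.93 (SD, n = 3). The remaining genes of the domain, the solute carrier Slc22a18, Tssc4 and the oxysterol-binding relative Osbpl5, averaged −0.73, −0.40 and −0.74, and none had an adjusted p under 0.238.

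**Figure D2:**
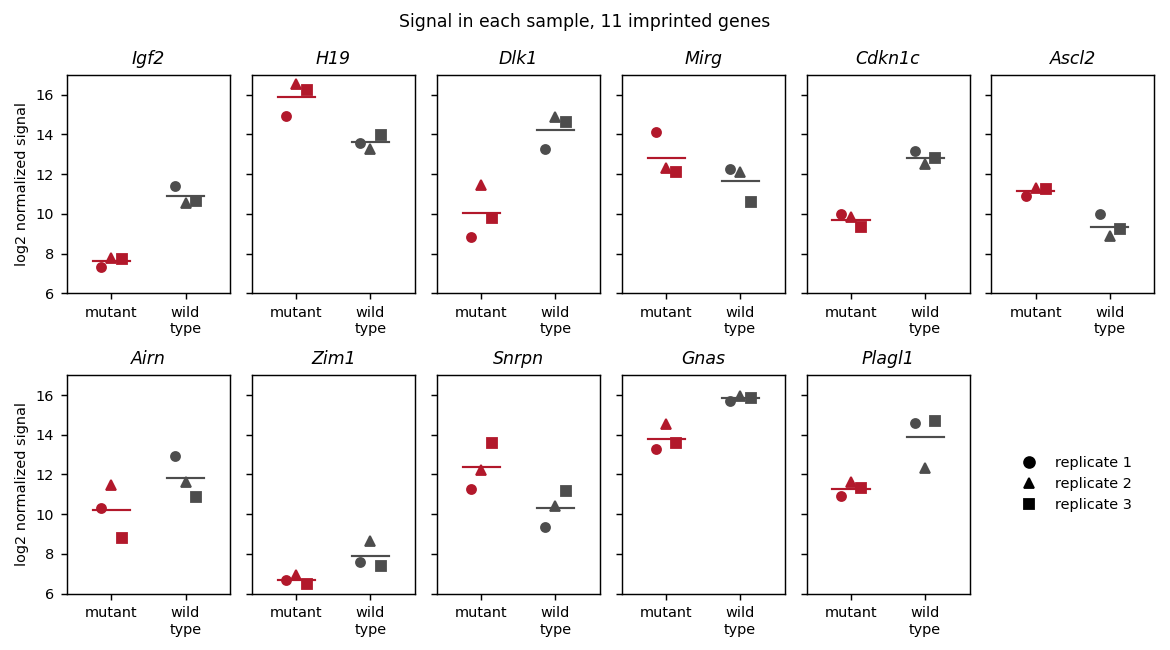
The log2 normalized signal of the brightest probe is plotted in each of 3 mutant and 3 wild type samples for the 11 imprinted genes with a mean log2 ratio of at least 1 in size and 1 sign on all arrays. Horizontal lines are means, and the groups overlap for Mirg and Airn.

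At the Snrpn-Ube3a locus of central chromosome 7, the paternally expressed genes had ratios on both sides of 0. Snrpn, a spliceosome protein abundant in the nervous system, had a log2 signal of 11.26, 12.23 and 13.59 in the mutant samples, against 9.35, 10.42 and 11.14 in the wild type samples. Each mutant sample was above every wild type sample. The ratios were 1.92, 1.81 and 2.45, with a mean of 2.06 ± 0.26 or 4.16-fold higher (SE, n = 3; limma adjusted p = 0.0543). Its other tested probes averaged 1.23 ± 0.58 and 1.95 ± 0.60 (SD, n = 3 each).

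Ndn and Magel2, which encode MAGE family proteins and lie next to each other in this locus, differed in sign on replicates 1 and 3. Ndn had −1.76, 0.67 and −1.56, while Magel2 had 1.69, 0.52 and 0.76 and was above 0 on all arrays. Mkrn3, a RING finger protein, averaged 0.12. Ube3a, the ubiquitin ligase that neurons express from the maternal allele, had 0.13, −0.29 and −0.20, a mean of −0.12 ± 0.24 (SE, n = 3; limma adjusted p = 0.805). Snrpn minus Ube3a was above 0 on every array, with a mean of 2.17 ± 0.44 (SD, n = 3). Peg12 was too dim to test, with ratios of −3.18, −0.43 and −2.49 at a probe above background on 2 arrays in each genotype.

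At the Igf2r-Airn locus of chromosome 17, Igf2r, the receptor that clears the IGF2 protein from the cell surface, had ratios of 0.20, −1.44 and 0.07 (mean −0.39 ± 0.40, SE, n = 3; limma adjusted p = 0.606). Airn, the paternally expressed noncoding RNA that silences Igf2r and its neighbours in cis, had a log2 signal of 10.31, 11.49 and 8.80 in the mutant samples, against 12.93, 11.64 and 10.85 in the wild type samples, and the groups overlapped. Its ratios were −2.62, −0.15 and −2.04, with a mean of −1.61 ± 0.52 (SE, n = 3; limma adjusted p = 0.166). Igf2r minus Airn was 2.82, −1.29 and 2.12, so replicate 2 had the other sign. The 2 further tested probes of Airn averaged −1.03 and −0.90, and the organic cation transporters Slc22a2 and Slc22a3 were not well above background in any sample. The brightest Airn probe is shown as the basis of these values, at chr17:12944784-12944843 of mm9, plus strand.
Airn: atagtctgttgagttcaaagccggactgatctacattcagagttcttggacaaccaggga

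Plagl1, a paternally expressed zinc finger factor of growth control, had a log2 signal of 10.94, 11.60 and 11.33 in the mutant samples, against 14.59, 12.30 and 14.69 in the wild type samples. The groups did not overlap, but the wild type sample of replicate 2 lay much nearer the mutant ones than the other 2 wild type samples did. The ratios were −3.65, −0.70 and −3.37, with a mean of −2.57 ± 0.63 (SE, n = 3; limma adjusted p = 0.108). A second Plagl1 probe averaged −2.34 ± 1.29 (SD, n = 3), with the same order of arrays.

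Gnas, which encodes the alpha subunit of the stimulatory G protein, has several promoters, some used by 1 parental allele and others by both. The probe at its 3′ end, chr2:174171933-174171992 of mm9 on the plus strand, which lies in sequence shared by several of its transcripts, had a log2 signal of 13.26, 14.55 and 13.60 in the mutant samples, against 15.71, 15.94 and 15.87 in the wild type samples. All mutant samples were lower. The ratios were −2.44, −1.39 and −2.27, with a mean of −2.04 ± 0.31 or 4.10-fold lower (SE, n = 3; limma adjusted p = 0.0580). A tested probe nearer the 5′ end, at chr2:174122337-174122396, averaged −0.62 ± 0.45 (SD, n = 3). The probe annotated to variant 6 was not above background in any sample. A further probe, above background on 2 arrays in each genotype and not tested, had 0.07, 0.13 and −1.81. Which transcripts each probe reads was not determined.

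At the Peg3 locus of proximal chromosome 7, the paternally expressed zinc finger gene Peg3 had ratios of −1.87, 0.88 and −1.62 (mean −0.87 ± 0.60, SE, n = 3; limma adjusted p = 0.445). Its maternally expressed neighbour Zim1, also a zinc finger gene, had −0.91, −1.71 and −0.89, a mean of −1.17 ± 0.29 (SE, n = 3; limma adjusted p = 0.107). Zim1 was dim, at a log2 signal of 6.67, 6.95 and 6.49 in the mutant samples and above background on 2 of these arrays, against 7.58, 8.66 and 7.38 in the wild type samples. It passed the filter through the wild type samples alone. Usp29, a ubiquitin protease, was too dim to test.

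At the Peg10-Sgce locus of chromosome 6, 3 of 4 tested genes had a mean below 0. Peg10, a gene derived from a retrotransposon and needed for the placenta, had 0.75, −0.36 and 1.23, and Sgce, epsilon-sarcoglycan, which shares its start region with Peg10, had −1.71, 0.24 and −1.29. The difference Peg10 minus Sgce was 1.46 ± 1.79 (SD, n = 3), positive on replicates 1 and 3 and negative on replicate 2. Asb4 and Ppp1r9a averaged −1.03 and −0.37, each with replicate 2 above 0.

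Several imprinted genes sit inside a host gene, and for these the neighbours parted by different amounts. Mcts2, a paternally expressed retrogene in an intron of H13, had ratios of −0.98, −0.86 and −1.09, a mean of −0.97 ± 0.23 (SE, n = 3; limma adjusted p = 0.104). Its log2 signal was 12.19, 10.74 and 12.11 in the mutant samples, against 13.17, 11.59 and 13.19 in the wild type samples. The signal thus differed more between replicates than between genotypes, while the ratios within arrays lay close together.

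H13, which encodes signal peptide peptidase and can end its transcripts upstream or downstream of Mcts2, was read by 3 tested probes. The brightest probe, downstream of Mcts2 at chr2:152530679-152530738 of mm9, had 0.00, 0.28 and 0.00, a mean of 0.09 ± 0.24 (SE, n = 3; limma adjusted p = 0.845). The probe upstream of Mcts2, at chr2:152512224-152512283 and annotated to variant 3, had −1.73, −1.61 and −1.72, a mean of −1.69 ± 0.07 (SD, n = 3). It was well above background on 1 of 3 mutant arrays and on all wild type arrays, at a log2 signal of 6.63, 6.21 and 6.53 in the mutant samples, against 8.37, 7.82 and 8.25 in the wild type samples. It passed the filter only through the wild type samples, and its mutant signal lay near background, so its ratios are given as values alone.

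Mest, a paternally expressed hydrolase-like protein of mesoderm, and Copg2, a coatomer subunit whose 3′ end faces that of Mest, were read by probes 153 bases apart on opposite strands. Mest had −1.32, 0.22 and −1.32 and Copg2 had 0.29, −0.48 and 0.45, with a difference Mest minus Copg2 of −0.89 ± 1.38 (SD, n = 3). Zrsr1, a splicing factor retrogene within Commd1, had 1.52, −0.74 and 1.62, and Commd1, which acts in copper metabolism, had −0.43, 0.16 and −0.39. Peg13, a noncoding RNA within Trappc9, averaged 0.18, and Trappc9, a subunit of a trafficking complex, −0.52. In each of these pairs at least 1 gene changed sign on replicate 2.

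Nnat, a proteolipid of the nervous system and pancreas within the intron of Blcap, was left out of the test because its bright probe had an outlier spot on replicate 1. That probe had −0.66 and −3.40 on replicates 2 and 3, and its other, dimmer probe had −2.74, −0.21 and −2.66. Blcap, the host gene, had −0.54, 1.40 and −0.08. Slc38a4, an amino acid transporter, also lost a spot and had 0.01 and 0.27 on replicates 1 and 2.

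Grb10, an adaptor that dampens growth factor receptors, was not well above background in any mutant sample and was so on 2 of the 3 wild type arrays, at least 1.40-fold lower in the mutant. Such a bound takes, for the dimmer genotype on each array, the lowest signal above background or the probe's own where that is higher, and is open to dye bias. Its neighbour Ddc, the decarboxylase that makes dopamine and serotonin, had 0.91, 0.55 and 0.96, a mean of 0.81 ± 0.24 (SE, n = 3; limma adjusted p = 0.149). Impact, a regulator of translation, averaged 0.51 ± 0.28 and was above 0 on all arrays (adjusted p = 0.344, limma). Dcn, the matrix proteoglycan decorin, had −0.08, 1.13 and −2.29. Rasgrf1, Nap1l5 and Inpp5f were too dim to test.

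Of the 14 imprinted genes with more than 1 tested probe, 10 had all their probes on 1 side of 0. The other 4 were Meg3, Copg2, H13 and Ppp1r9a. Every tested probe of Copg2 and Ppp1r9a had a mean within 1 SD of 0. The dimmer tested probes of Dlk1, Peg3 and Kcnq1ot1, all counted among the 10, passed the filter only through the wild type samples. Passing in that way favours a ratio below 0, where those of Dlk1 and Peg3 lay, while that of Kcnq1ot1 was above 0.

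**Figure D3:**
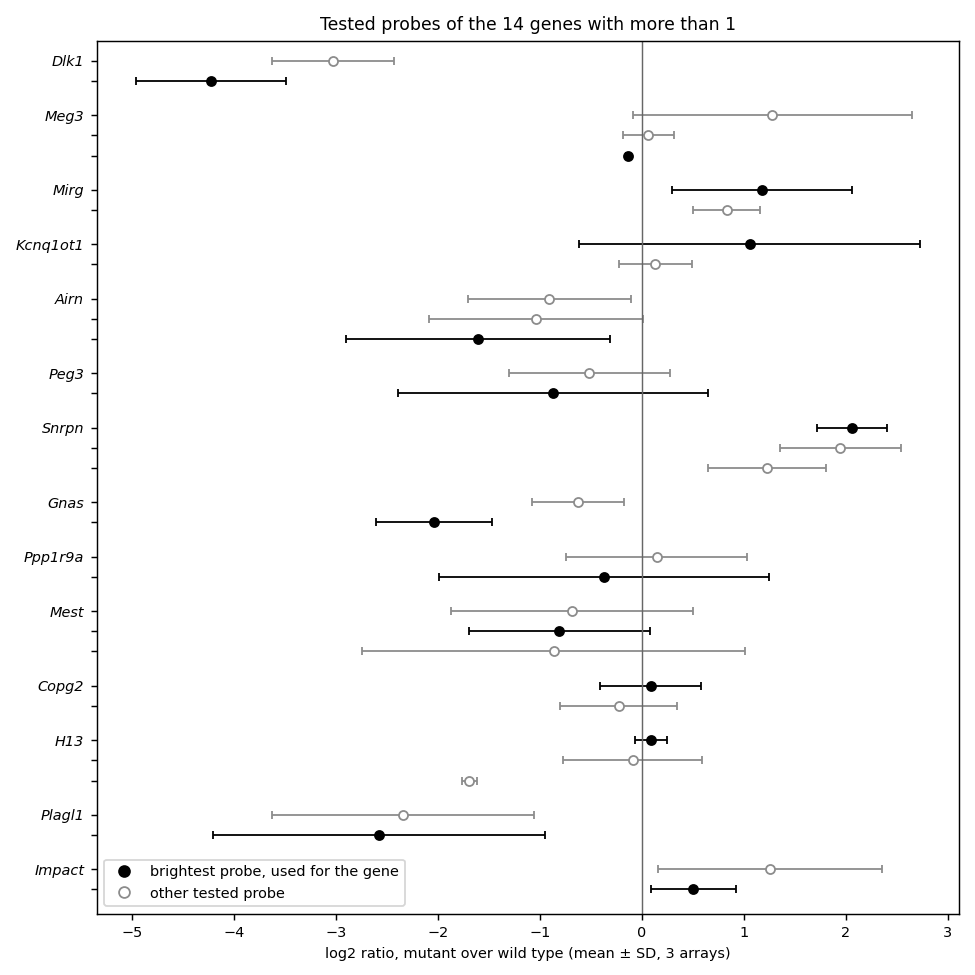
The mean and SD over 3 arrays of the log2 ratio (mutant over wild type) are plotted for every tested probe of the 14 imprinted genes with more than 1, filled for the brightest probe. The probes of Dlk1, Snrpn, Plagl1, Airn and Mirg each lie on 1 side of 0. The H13 probe at −1.69 was near background in the mutant samples, and the dimmer Dlk1 probe passed the filter only through the wild type samples.

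The arrays agreed unequally over the imprinted genes. Across the 39 genes, which share arrays and are not independent, Pearson's r was 0.918 between replicates 1 and 3, 0.444 between 1 and 2 and 0.459 between 2 and 3, against 0.879, 0.151 and 0.180 across all genes. A single sign on all 3 arrays was found for 17 of the 39 (43.6%), against 44.3% of all genes, so their share was near the background. In 18 of the 39 (46.2%, against 40.0% of all genes) replicate 2 opposed the other arrays. Without replicate 2, 17 imprinted genes were called lower and 11 higher, where 21.7% and 25.7% of all genes were. That fit holds 2 arrays of 1 dye orientation.

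**Figure D4:**
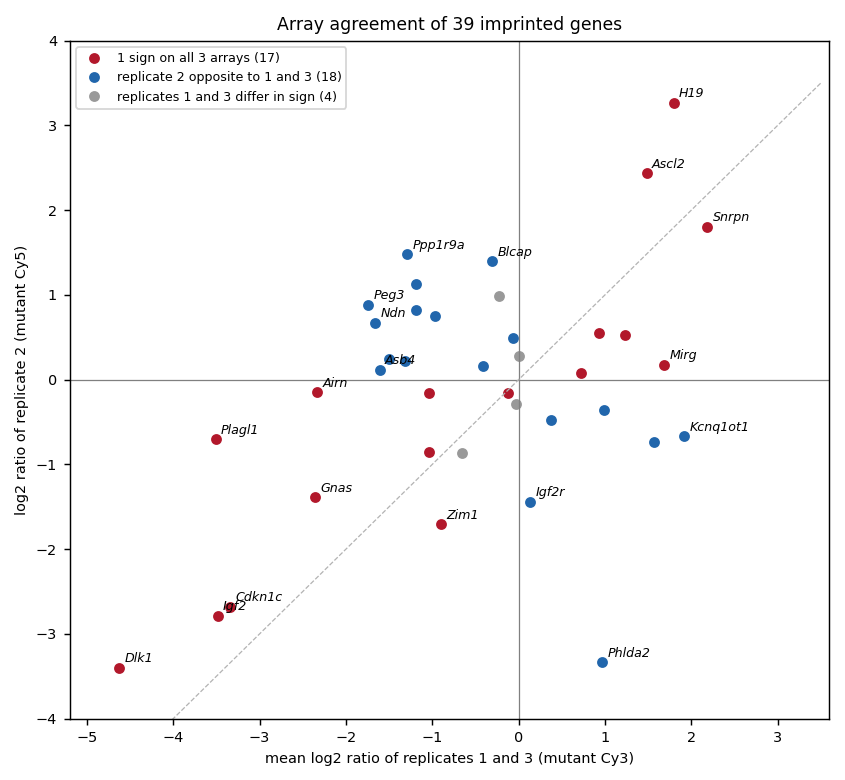
For each of 39 imprinted genes the log2 ratio on replicate 2, where the mutant carried Cy5, is plotted against the mean of replicates 1 and 3, where it carried Cy3, with a dashed line of equality. The 17 genes with 1 sign lie in the lower left and upper right, among them Dlk1, Igf2, Cdkn1c, H19, Ascl2 and Snrpn, and Phlda2 is farthest from the line.

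The genes were also grouped by the parental allele they are expressed from where they are imprinted, which for some, such as Ube3a, is only in certain cells. The allele used in these embryoid bodies was not measured, and the difference between these classes was not tested. The 18 tested paternally expressed genes had a median of −0.34, with 9 above and 9 below 0, and the 20 maternally expressed genes had −0.38, with 6 above and 14 below. Over all 15426 genes, 8085 were above 0 and 7341 below. Large ratios of 1 sign stood above 0 for 1 and below 0 for 4 of the paternally expressed genes, and above 0 for 3 and below 0 for 2 of the maternally expressed ones. The summed signal of the paternally expressed genes was 34901 to 50359 in the mutant samples, against 66426 to 107174 in the wild type samples. That of the maternally expressed genes was 88589 to 148828 in the mutant samples, against 70296 to 72803 in the wild type samples, and without H19, left out after the data were seen, it was 44836 to 57338 in the mutant samples, against 55979 to 60554 in the wild type samples. Dlk1 belongs to the paternal group and Cdkn1c to the maternal one. The brightest genes weigh most in such sums. In the wild type samples Dlk1 and Plagl1 were among the brightest of the paternal group, at log2 signals of up to 14.86 and 14.69. A paternal sum without Dlk1 was not taken, so the paternal sums do not show a fall across that group. By locus, the median was below 0 at 12 of the 17 loci with a tested gene and above 0 at 5. Of 11 loci with at least 2 tested genes, 9 had genes on both sides of 0. The exceptions were Igf2r-Airn and Peg3, where both tested genes were below 0.

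A list of 45 other imprinted autosomal genes had 19 tested, a median ratio of −0.11 and no call in either direction. At an unadjusted p under 0.05, 3 were lower and 1 higher, against 1747 and 1755 of all 15426 genes. The chloride channel gene Ano1 had −2.05 (adjusted p = 0.0640, limma) and the zinc finger gene Zfp264 1.57 (adjusted p = 0.0773, limma). Zfp264 was above background on 1 of 3 wild type arrays and passed the filter only through the mutant samples.

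Of 28 listed genes that set or keep imprints, 26 were tested. A mean ratio above 0 was found for 20 of these, against 8085 of all 15426 genes. The median ratio was 0.50. Of the 26, 1 was called higher (0.207% of all genes) and none lower (0.0908%). At an unadjusted p under 0.05, 9 were higher, against 1755 of all genes. The called gene was Zfp42, also a marker of pluripotency, at 3.17 ± 0.26 (SE, n = 3; limma adjusted p = 0.0417). Zfp57, which keeps methylation at imprinted regions, had 1.78, 1.63 and 1.79 (adjusted p = 0.0543, limma). Ctcfl, the germ line relative of the insulator protein CTCF, averaged 2.42 (adjusted p = 0.0502, limma). Ctcfl was above background on 2 of 3 wild type arrays and passed the filter only through the mutant samples. The de novo methyltransferase Dnmt3b and its cofactor Dnmt3l averaged 2.07 and 2.21, and the maintenance methyltransferase Dnmt1 averaged −0.30. Ctcf itself averaged 0.34 and Trim28, the partner of ZFP57, 0.51. None of these but Zfp42 passed the threshold, and DNA methylation was not measured.

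**Figure D5:**
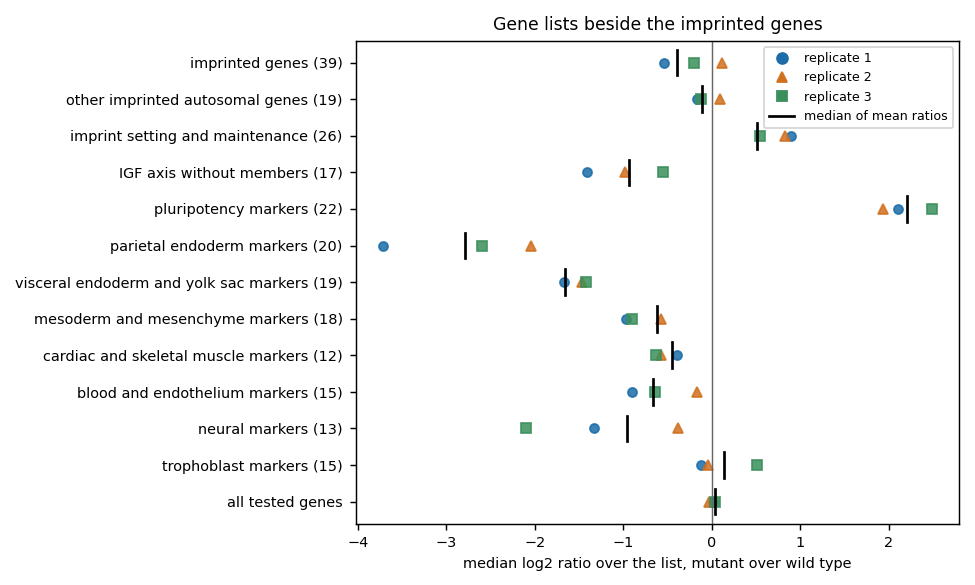
The median log2 ratio of mutant over wild type is plotted for each list of genes on each of 3 arrays, with the number of tested genes in brackets and black lines at the median of mean ratios. The pluripotency markers lie at 2.20 and the parietal endoderm markers at −2.78, with the 39 imprinted genes at −0.39 between them.

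Markers of cell types were read on the same arrays. The embryoid bodies had signal for markers of stem cells and of several lineages in both genotypes. Pluripotency markers, all 22 tested, had a median ratio of 2.20. Of these, 4 were called higher, against 0.207% of all genes, and none lower. Their summed signal was 232101 to 476048 in the mutant samples, against 77052 to 104761 in the wild type samples. Parietal endoderm markers, 20 of 21 tested, had a median of −2.78, with none called. All 20 were below 0 on all 3 arrays, against 22.7% of all genes. Stra6, Thbd and Plat among them passed the filter only through the wild type samples, and passing in that way favours a ratio below 0. The summed signal of the list was 37797 to 202952 in the mutant samples, against 388740 to 834183 in the wild type samples. Each tested marker was above background on at least 1 mutant array. In RNA of mixed cells, fewer cells of a type and less RNA per cell cannot be told apart.

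Visceral endoderm and yolk sac markers, 19 of 21 tested, had a median of −1.66 with 1 called lower, where 0.0908% of all genes were. Their summed signal was 23462 to 130224 in the mutant samples, against 90720 to 411976 in the wild type samples. Mesoderm and mesenchyme markers had a median of −0.62 (18 of 23 tested, none called). Cardiac and skeletal muscle markers had −0.45 (12 of 19, 1 called lower). Blood and endothelium markers had −0.66 (15 of 19, 1 called lower) and neural markers −0.95 (13 of 20, none called). In each of these lists some markers passed the filter only through the wild type samples, among them Fgb, Lum, Myh7, Hba-x and Zic1. A few, such as Meox1 and Eng, passed only through the mutant samples. The mesoderm sum was 24396 to 39446 in the mutant samples, against 36974 to 56805 in the wild type samples. The cardiac sum was 5037 to 8005 in the mutant samples, against 10122 to 27068 in the wild type samples, and the blood sum 6105 to 7496 in the mutant samples, against 13559 to 19945 in the wild type samples. The neural sum was 5718 to 9370 in the mutant samples, against 6522 to 107107 in the wild type samples, with the wild type low on replicate 2 as for Plagl1. Trophoblast markers, 15 of 21 tested, had a median of 0.13 with none called. The probe used for Gcm1 among them is listed on chromosome 7, where RefSeq places the gene on chromosome 9, and without Gcm1, a choice made after the data were seen, the other 14 had a median of 0.10 and a sum of 31329 to 79871 in the mutant samples, against 41241 to 146174 in the wild type samples. Elf5, Gata2, Tpbpa and Syna of the trophoblast list were not tested. Of the 15 tested, 3 were below 0 on all 3 arrays, Cdx2 (mean −1.71), Krt8 and Krt18. Above 0 on all 3 arrays were 2, Tfap2c and Prl3d1 (means 1.32 and 1.90). Cdx2 passed the filter only through the wild type samples, and Prl3d1 only through the mutant samples. The part that these markers have in the ratios of Dlk1, Igf2, Cdkn1c, H19, Ascl2 or Snrpn was not tested.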

How the data were processed

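RNA of 3 mutant and 3 wild type samples was measured on 3 two-colour Agilent arrays. The members and gene lists were chosen with earlier results of these data known. Per the file headers, Agilent Feature Extraction 10.7.3.1 wrote the deposited scanner files, which hold mean and local background intensity per spot and dye, not normalized, besides processed intensity values that are background-subtracted and dye-normalized. Other columns of flags, per the file headers, mark spots above background, saturated or outlying, and positions are on mm9. A further deposited table holds the authors' log2 ratios, for which the submitters' processing notes name limma without its settings. Against the scanner values its direction was mutant over wild type and its column medians were −0.04, 0.01 and −0.01, while whether it was centred stays unknown. Its columns labelled replicates 1 and 3 each correlated more with the other's scanner file (r = 0.775 against 0.620, and 0.815 against 0.715), which does not alter mean ratios.

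In R 4.3.3 with limma 3.58.1, normexp (offset 50) and loess within arrays were applied. Control spots (1377) had weight 0, and outlier spots (317, 364 and 438 per array) were left out, with 7 spots on replicate 3 whose background exceeded 10 times the array median. Probes above background on all 3 arrays of at least 1 genotype were tested, the brightest per gene, with lmFit and eBayes, two-sided (2 residual and 3.04 prior degrees of freedom). Symbols of 2878 among 26761 matched probes were updated from RefSeq GRCm38.p6. Sample levels were scaled with Aquantile after loess. Members on 1 chromosome less than 3 Mb apart formed a locus, and the H19-Igf2 and Kcnq1ot1 domains, which that joins, were kept apart. Values per array are given for genes past the test, for those with a mean of at least 1 in size and 1 sign, and for neighbouring pairs; a few others were added after their values were seen. Genotypes are paired by array. The number of arrays limits the precision. The fit was tested on simulated data with independent noise, smaller than the spread of the arrays and without a dye effect. That checked the recovery of added ratios and not the calls made here. In addition, 13 alternatives were run.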

Additional observations from a re-analysis of the deposited data

How the results depend on the processing

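The 13 alternatives covered background, normalization, dye, filter, probe choice and each replicate left out. The median of the imprinted genes stayed below 0 in all 13, between −0.72 and −0.12, and between 11 and 15 loci had a median below 0. Median centring moved the median of all genes to −0.22 and that of the imprinted genes to −0.72. No imprinted gene was called lower with all spots in the background model, with median centring, in the authors' deposited log2 ratios, without a filter on dim probes or with signal above background required in both genotypes (0 in each); limma then called 0, 7, 0, 2 and 4 genes over both directions, with 1684, 3943, 3102, 5101 and 2628 at an unadjusted p under 0.05. With Agilent processed signals 1 was called higher and 3 lower, where 1.55% and 0.901% of all genes were. With a dye term 6 were called higher and 13 lower, against 15.9% and 14.9% of all genes. With the channels unpaired (no replicate block) 4 were lower, against 0.590% of all genes. With 1 replicate left out, between 0 and 17 were called lower and between 0 and 11 higher. The highest counts were without replicate 2, where 21.7% and 25.7% of all genes were called. The dye term leaves 1 residual degree of freedom. Dlk1 and Cdkn1c each lost the call in 7 of 13, with adjusted p of 0.000709 to 0.122 and 0.000942 to 0.168 (limma), and kept their sign in all. The other 9 genes with a mean of at least 1 in size and 1 sign on all arrays also kept it, Zim1 in the 12 alternatives where it was tested.

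Signs that turned belonged to genes near 0 or split between arrays, and the cause was not tested. With all spots in the background model Copg2 had −0.044, H13 −0.0038 and Dcn 0.27. With median centring Mkrn3 had −0.15, Copg2 −0.23, Blcap −0.084, H13 −0.22 and Peg13 −0.076. With a dye term Ppp1r9a had 0.093 and Copg2 −0.054. With the mean over tested probes Meg3 had 0.40, Copg2 −0.069 and H13 −0.56. With 1 replicate left out, values ran from −1.41 to 0.96 for Phlda2, −0.68 to 0.14 for Igf2r, −0.060 to 0.24 for Mkrn3, −0.31 to 0.66 for Blcap, −0.0012 to 0.14 for H13, −0.22 to 0.63 for Peg13, −0.095 to 0.37 for Copg2, −1.29 to 0.21 for Ppp1r9a and −1.19 to 0.53 for Dcn.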
